A study of Mus musculus with 2 samples.

Results

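The 7 genes that encode the subunits of the NMDA receptor, Grin1, Grin2a, Grin2b, Grin2c, Grin2d, Grin3a and Grin3b, were described by their open chromatin in the aged mouse cortex. They were taken by name from the GENCODE M21 annotation of the mm10 genome, where all 7 were found among 21938 protein-coding genes. Each gene was read over its annotated body with 10 kb on either side, and around each annotated start over 500 bases on either side. A peak overlapping the latter window is called a promoter peak, and a peak with no start of any gene within 500 bases is called distal. A gene's promoter signal is that of its strongest promoter peak, or 0 where it had none. A gene is called open where each of the libraries had a promoter peak.

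Open chromatin was measured by DNase-seq, in which DNase I cuts DNA that nucleosomes leave exposed and the cut ends are sequenced. The tissue was left cerebral cortex of female B6CASTF1/J mice aged 18 to 20 months, a hybrid strain that carries a CAST genome beside a B6 genome. There was 1 group with 2 libraries, called library 1 and library 2 after their biological replicate numbers, with no other genotype, age or treatment, so no comparison between conditions was possible and no test was made. The labels list a tissue sample for each library under a shared donor identifier and do not say whether these were different animals, so the spread given here (SD, n = 2) may be technical. Peak signals are the authors' values with no stated normalization. No source used here states how many reads were sequenced, which leaves the depth unknown. In bulk tissue, fewer cells with an open site and a less open site in each cell cannot be told apart.

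NMDA receptors are glutamate-gated cation channels that also need glycine or D-serine as a co-agonist, and they open fully only when the membrane is already depolarized, which makes them detectors of coincident activity at synapses. Every receptor holds the obligatory GluN1 subunit, encoded by Grin1, together with GluN2 subunits (Grin2a to Grin2d), which bind glutamate and set the channel's kinetics, or glycine-binding GluN3 subunits (Grin3a and Grin3b). In the forebrain GluN2B is the main early subunit and GluN2A is added as circuits mature, while GluN2C is best known from cerebellar granule cells, GluN2D from interneurons and GluN3B from motor neurons.

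Of the 7 genes, 5 were open, and Grin2c and Grin3b had no promoter peak in either library. Over all protein-coding genes the open share was 63.6%, so a count of 5 of 7 lies near that of genes in general. The promoter signal of the 7 genes had a median of 2.06 in library 1 and 2.36 in library 2 (2.21 ± 0.212). All protein-coding genes had medians of 1.31 and 1.55, and the open ones 3.13 and 3.47. Grin1 lay highest, with 4.25 in library 1 and 4.80 in library 2, above every value of the other 6 genes. Grin2a (2.31 and 2.36), Grin3a (2.06 and 2.60) and Grin2b (2.10 and 2.49) followed with overlapping values, so their order cannot be told from these libraries. By GENCODE starts Grin2d was lower, at 0.408 and 0.499, but with the curated RefSeq start it had 1.52 and 1.87, which overlaps the Grin2b values from RefSeq starts (1.62 and 2.20). Grin2c and Grin3b stood at 0 with either annotation.

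**Figure D1:**
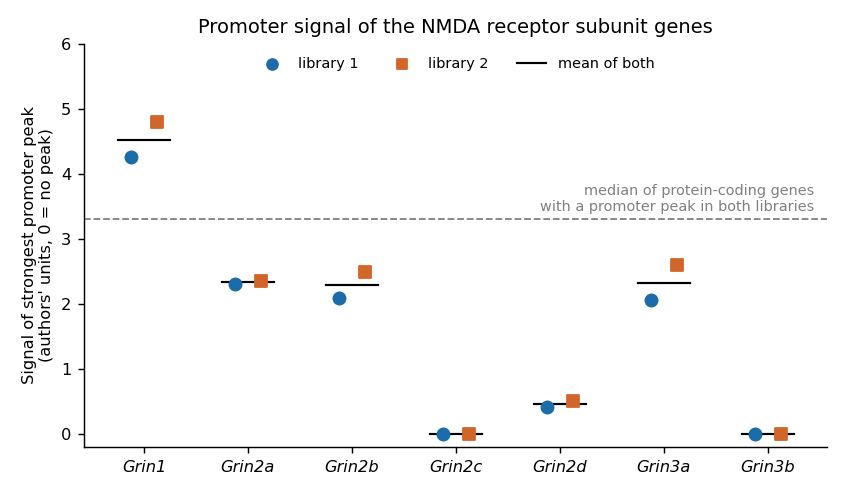
Promoter signal (authors' units, linear axis) of the 7 NMDA receptor subunit genes in library 1 (circles) and library 2 (squares), with the mean of both as a black line. The dashed line is the median, 3.30, of open protein-coding genes (a promoter peak in each library): Grin1 lies above it, and the other 6 genes lie below it. Starts are those of GENCODE; with the RefSeq start the mean of Grin2d would be 1.70.

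Grin1 encodes the subunit that no NMDA receptor can do without, and its promoter was the most open of the family. The gene lies on the minus strand of chromosome 2 (25291181 to 25319187, ENSMUSG00000026959.13) and spans 28.007 kb. Its strongest peak, at 25319081 to 25319340 in library 1, covers the starts of its coding transcripts, with a signal of 4.25 in library 1 and 4.80 in library 2 (4.53 ± 0.389). Among open protein-coding genes this was percentile 64.7 in library 1 and 68.2 in library 2. A weaker promoter peak (1.24 and 1.22) lies at the starts of 2 noncoding transcripts, 14.066 kb downstream of the most upstream start. The strongest distal peak found in both libraries lies in an intron 0.896 kb downstream of that start, with 1.30 and 1.58. In all, the Grin1 window held 6 peaks in library 1 and 9 in library 2, of which 2 in each lie within 500 bases of a start of Lrrc26 or Grin1os, the neighbouring genes. The peak near the start of the antisense gene Grin1os (25290681 to 25290920, library 2 only) lies beyond the downstream end of Grin1. It is 5879 bases from the nearest Grin1 start. DNase-seq does not record which strand is transcribed, and peaks were assigned by their distance to starts alone.

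The part of the Grin1 promoter peak that lies outside annotated exons is shown because it lies at the most open start of the family and holds footprints of both libraries. A further footprint found in both libraries (25319170 to 25319185 in library 1) lies in the exon part, which is not printed. A footprint is a short stretch inside an open region that is cut less than its surroundings, as the authors called it per library. In this and the following sequences, read from the mm10 RefSeq assembly and written 5′ to 3′ on the strand of the gene, capitals mark bases inside a footprint of both libraries.
Grin1 promoter, chr2:25319188-25319340, minus strand: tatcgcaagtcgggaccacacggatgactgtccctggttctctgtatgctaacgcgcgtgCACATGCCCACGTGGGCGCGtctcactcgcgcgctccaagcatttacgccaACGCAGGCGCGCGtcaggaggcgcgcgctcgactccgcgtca
Within these 153 bases, 2 runs with 33 bases in all were in a footprint of both libraries. The run nearest to the gene contains CGCAGGCGC, a match on the reverse strand to the NRF1 consensus GCGCNTGCG, at bases 113 to 121 counted from the 5′ end, and all 9 bases of it were in the footprint of both libraries. These letters occurred in 15.6% of the 300-base windows centred on promoter peaks of protein-coding genes, and in those of 2 of the 5 open NMDA receptor genes, Grin1 and Grin2b. A match of letters is a description and does not show what bound there.

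Grin2a, which encodes the GluN2A subunit of mature synapses, had a broad cluster of promoter peaks and the most peaks of the family. The gene lies on the minus strand of chromosome 16 (9567898 to 9995560, ENSMUSG00000059003.12) and spans 427.663 kb. Library 1 listed 8 promoter peaks and library 2 listed 7, but in each library some of these overlap or lie inside each other, so fewer are separate. Bases under a false discovery rate of 0.05 made up 61.9% and 72.2% of the windows around its starts. The strongest, at 9995281 to 9995860 in library 1, lies at the most upstream start, with a signal of 2.31 and 2.36 (2.33 ± 0.0342). The next, at 9993781 to 9994000, lies 1.67 kb downstream with 1.97 and 2.33. A noncoding start deep in the gene, at 9797333, had no promoter peak in either library. With GENCODE coding starts alone the promoter signal of Grin2a was 1.95, because the GENCODE start under its strongest peak in library 2 belongs to a noncoding transcript. The curated RefSeq coding start, at 9995813, lies inside that peak as well, and with RefSeq starts the signal stayed at 2.33.

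Over its whole window, Grin2a held 50 peaks in library 1 and 62 in library 2 (56.0 ± 8.49), against a median of 25 in both libraries over the 200 protein-coding genes of nearest span. This placed it at percentiles 96.25 and 99 of those genes. Of peaks found in both libraries, 22 were distal. The strongest of these lies in an intron 193.95 kb downstream of the most upstream start (9801521 to 9801700), with 1.67 in library 1 and 2.18 in library 2. Others in introns stood at 1.52 and 1.78 (227.03 kb downstream) and at 1.39 and 1.26 (153.86 kb). No intron peak of Grin2a found in both libraries had a mean signal above that of its strongest promoter peak.

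The surplus of Grin2a peaks in library 2 came from 1 stretch. Between positions 9617452 and 9656320 of chromosome 16, a length of 38.869 kb near the downstream end of the gene, library 2 listed 28 peaks and library 1 listed 3. Of the 28, 25 had a signal under 0.3 (0.0863 to 0.290, median 0.148), none of these 25 overlapped a peak of library 1, and 17 of them held no footprint. Their false discovery rates were low all the same: the lowest rate in each of the 25 ran from 2.47e-22 to 0.00434, against 2.13e-19 in the strongest Grin2a promoter peak of library 2. With these 25 left out, library 2 had 37 peaks over the whole Grin2a window, against 50 in library 1, and 29 of the 37, or 78.4%, overlapped a peak of library 1. The high percentile of Grin2a in library 2 therefore includes these 25 weak peaks, whereas library 1 listed no peak under 0.3 in any of the 7 windows.

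Grin2b encodes GluN2B, the main GluN2 subunit of the developing forebrain, which remains in use in the adult cortex, and its strongest intron peaks exceeded its promoter. The gene lies on the minus strand of chromosome 6 (135713233 to 136173511, ENSMUSG00000030209.14) and spans 460.279 kb. Its promoter held 3 peaks found in both libraries. The strongest, at 136172181 to 136172600, lies 1.121 kb downstream of the most upstream start and just upstream of the gene's most downstream start (136171889), with 2.10 in library 1 and 2.49 in library 2 (2.29 ± 0.279). The peaks at the most upstream starts were lower, with 1.61 and 1.70 for the one just inside the gene and 1.62 and 2.20 for the one just outside it. The antisense gene Gm26653 starts at 136173061. In library 1 the strongest promoter peak and the peak just inside the gene lie within 500 bases of that start as well, so they cannot be assigned to Grin2b alone, whereas the peak just outside lies near Grin2b starts only.

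The strongest Grin2b promoter peak is shown over 300 bases, which lie in an intron of the longer transcripts.
Grin2b promoter, chr6:136172240-136172539, minus strand: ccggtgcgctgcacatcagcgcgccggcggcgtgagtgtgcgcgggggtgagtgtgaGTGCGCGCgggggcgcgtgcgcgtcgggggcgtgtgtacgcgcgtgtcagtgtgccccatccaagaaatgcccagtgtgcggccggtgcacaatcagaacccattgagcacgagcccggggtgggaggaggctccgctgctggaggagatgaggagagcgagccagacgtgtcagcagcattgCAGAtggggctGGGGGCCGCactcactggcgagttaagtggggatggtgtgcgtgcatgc
Here 3 short runs with 21 bases in all were in a footprint of both libraries, fewer than the 33 bases of the shorter Grin1 stretch. A further footprint found in both libraries (136172225 to 136172231 in library 1) lies in the part of the peak that is not printed. In the printed stretch the letters of the NRF1 consensus are present at bases 70 to 78, as GCGCGTGCG, with none of them in a footprint of both libraries. An E-box, CAGATG, lies at bases 241 to 246 with 4 of its bases in one. That E-box was found in 10.4% of the promoter windows of protein-coding genes, and among the 5 open NMDA receptor genes only in that of Grin2b.

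The intron peak of Grin2b at 135907641 to 135907880 had a signal of 3.97 in library 1 and 4.01 in library 2 (3.99 ± 0.0281), above every promoter value of Grin2b (at most 2.49) and the strongest distal peak found in both libraries over the 7 genes. It lies 265.751 kb downstream of the most upstream start, well inside the gene. It is one of several strong intron peaks in the same stretch, which is visible in the plot of peaks along each gene. Their signals were 3.01 and 2.33 at 313.851 kb, 2.32 and 1.95 at 274.081 kb, 1.60 and 2.01 at 307.451 kb, and 1.68 and 1.54 at 272.921 kb. The peaks at 265.751 and 313.851 kb had means (3.99 and 2.67) above that of the strongest Grin2b promoter peak (2.29). In Grin1, Grin2a and Grin3a no distal peak found in both libraries exceeded the promoter. In Grin2d one did by GENCODE starts, with a mean of 1.70 against 0.454, and that peak is the promoter peak by the RefSeq start. The whole Grin2b window held 35 peaks in library 1 and 40 in library 2, at percentiles 74.5 and 81 of genes of like span, and 21 of the peaks found in both libraries were distal.

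The sequence of the strongest intron peak is shown because it carries the longest footprint found at the same place in both libraries among the sequences printed here.
Grin2b intron peak, chr6:135907641-135907880, minus strand: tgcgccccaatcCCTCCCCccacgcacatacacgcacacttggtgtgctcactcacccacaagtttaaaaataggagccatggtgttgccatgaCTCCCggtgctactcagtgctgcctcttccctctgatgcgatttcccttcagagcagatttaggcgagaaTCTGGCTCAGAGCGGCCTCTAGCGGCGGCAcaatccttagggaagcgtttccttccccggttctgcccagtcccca
The long capital run is a footprint of 30 bases in library 1 (135907687 to 135907716) and 31 bases in library 2 (135907687 to 135907717). The median footprint was 9 bases long in both libraries, and footprints of 25 bases or more made up 7.89% of all footprints in library 1 and 7.82% in library 2. Of the motifs searched, the peak held the CCAAT box at bases 7 to 11 and a match to the MEF2 consensus at bases 65 to 74, both outside the shared footprints. These were present in 30.9% and 4.69% of 300-base windows on distal peaks of library 1, which are longer than the 240 bases printed.

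**Figure D2:**
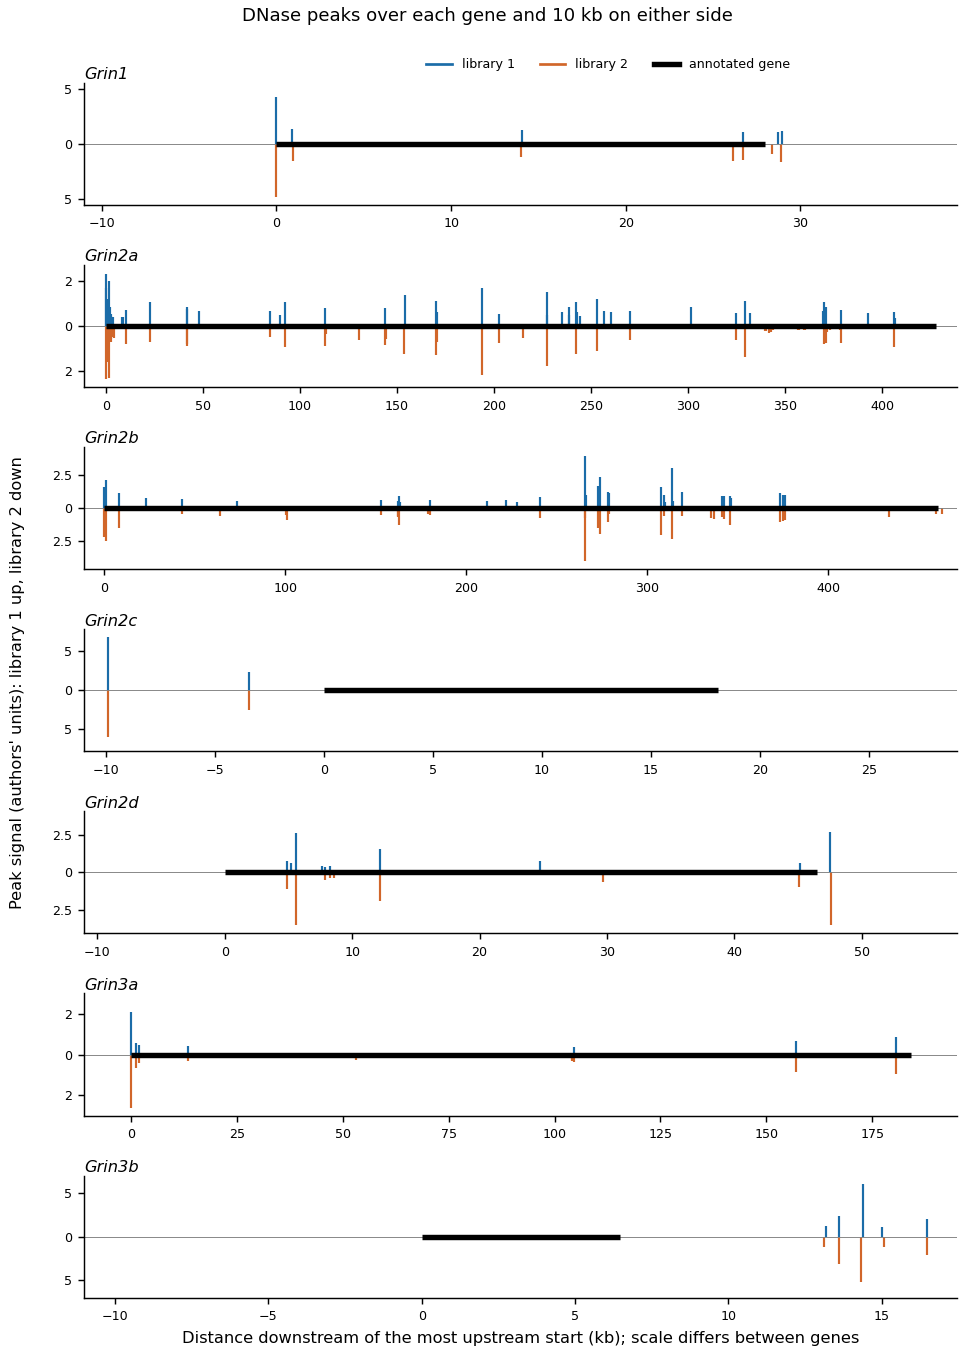
Peaks along the 7 genes and their 10 kb flanks, with library 1 drawn upward and library 2 downward. The height is the signal in the authors' units (linear axes that differ between genes), the horizontal axis is the distance from the most upstream start in kb, and the black bar is the annotated gene; the bodies of Grin2c and Grin3b hold no peak, and the strongest intron peaks of Grin2b lie between 265.751 and 313.851 kb.

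Grin2c, which encodes GluN2C, had no peak anywhere in its body. The gene lies on the minus strand of chromosome 11 (115249169 to 115267243, ENSMUSG00000020734.13) and spans 18.075 kb with 2 annotated starts. In the windows around these starts no base had a false discovery rate under 0.05 and no footprint was listed, in either library. Over the whole body 42 bases in library 1 and 0 in library 2 were under that rate. The 2 peaks of its window in each library lie upstream, a count at percentiles 22.25 and 22.75 of genes of like span. The stronger is at the start of Fdxr, the gene of a mitochondrial reductase, with 6.76 in library 1 and 5.94 in library 2. The other, with 2.28 and 2.58 (2.43 ± 0.210), lies inside Fdxr, upstream of Grin2c at -3.437 kb from its most upstream start.

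Grin3b, which encodes GluN3B, gave the same picture in the smallest gene of the family. It lies on the plus strand of chromosome 10 (79970715 to 79977190, ENSMUSG00000035745.9) and spans 6.476 kb. Neither library had a peak, a footprint or a base under a rate of 0.05 in its body or near its 3 starts. Its window held 5 peaks in each library, at percentiles 82.5 and 76.75 of genes of like span, and all of them lie beyond its downstream end. Of these, 4 in each library are within 500 bases of starts of Tmem259 or the small nuclear RNA gene Gm26243 (the strongest with 6.12 and 5.21), and the remaining peak (2.07 and 2.16) lies 16.495 kb from the start of Grin3b. With peaks near starts of other genes left out, 1 peak was left in each library.

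The 250 bases upstream of the most upstream start are shown for both genes, since these are the members without a promoter peak at any start; neither stretch holds a base in a footprint, so both are in lower case throughout.
Grin2c upstream, chr11:115267244-115267493, minus strand: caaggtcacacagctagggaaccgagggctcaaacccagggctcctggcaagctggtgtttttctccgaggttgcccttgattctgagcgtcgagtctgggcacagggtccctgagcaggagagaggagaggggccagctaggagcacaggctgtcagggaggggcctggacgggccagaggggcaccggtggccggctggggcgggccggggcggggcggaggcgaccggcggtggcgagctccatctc
Grin3b upstream, chr10:79970465-79970714, plus strand: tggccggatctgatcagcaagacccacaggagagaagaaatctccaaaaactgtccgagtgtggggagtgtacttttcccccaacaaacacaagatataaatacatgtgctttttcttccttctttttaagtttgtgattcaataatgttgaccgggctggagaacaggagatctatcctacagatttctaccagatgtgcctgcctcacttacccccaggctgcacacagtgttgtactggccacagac
The Grin2c stretch is GC-rich near the gene and holds the GC box GGGCGG 3 times, at bases 201 to 206, 211 to 216 and 216 to 221, the last pair sharing a base. The Grin3b stretch holds no GC box, and it holds the AP-1 letters TGATTCA at bases 136 to 142 and the E-box CAGATG at bases 193 to 198.

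Grin2d, which encodes GluN2D, had weak promoter peaks by GENCODE starts and a stronger one by the RefSeq start. The gene lies on the minus strand of chromosome 7 (45831883 to 45878378, ENSMUSG00000002771.12) and spans 46.496 kb with 3 annotated starts. Only the start at 45870429 had promoter peaks, the strongest with 0.408 in library 1 and 0.499 in library 2 (0.454 ± 0.0644), at percentiles 2.74 and 3.19 of open genes. These were different peaks, at 45870101 to 45870158 in library 1 and 45870400 to 45870660 in library 2. The spread is therefore not that of 1 peak. Peaks matched between the libraries there had 0.408 and 0.351, and 0.402 and 0.499. The starts at 45867129 and 45878378 had none. A peak of 1.52 in library 1 and 1.87 in library 2 (1.70 ± 0.248) lies at 45866021 to 45866300, in a coding exon by GENCODE. It lies downstream of the curated RefSeq start at 45866681 and does not cover it, and only a part of the peak overlaps the 500-base window of that start. With RefSeq starts the promoter signal of Grin2d was therefore 1.70 in place of 0.454, and the same value was reached with windows of 1000 bases around GENCODE starts. This peak held 7 footprints in library 1 and 6 in library 2, whereas the windows around the GENCODE starts held 1 and 3.

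Neighbours also contribute to the Grin2d window. It held 10 peaks in library 1 and 9 in library 2, and 4 of these in each library lie at starts of other genes. The strongest are at the start of Grwd1 just downstream of the gene (2.65 and 3.53) and at that of Kdelr1 (2.63 and 3.47), which begins inside Grin2d on the opposite strand. Both exceeded every promoter peak of Grin2d by either annotation.

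Grin3a, which encodes the glycine-binding subunit GluN3A, had an open promoter and few other peaks for its length. It lies on the minus strand of chromosome 4 (49661611 to 49845744, ENSMUSG00000039579.15) and spans 184.134 kb. The promoter peak at 49845661 to 49845940 had 2.06 in library 1 and 2.60 in library 2 (2.33 ± 0.382). A noncoding start at 49719250 had none. Its window held 7 peaks in library 1 and 10 in library 2, or 3.43 and 4.90 per 100 kb, against 11.2 and 13.8 for Grin2a and 7.29 and 8.33 for Grin2b, the other long genes of the family. Among genes of like span, Grin3a was at percentiles 15.75 and 32.5. All 7 peaks of library 1 overlapped a peak of library 2. The strongest distal peak lies 180.674 kb downstream, near the far end of the gene, with 0.851 and 0.950 (0.900 ± 0.0699), well below the promoter in both libraries.

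The upstream part of the Grin3a promoter peak is shown for comparison with Grin1, since both lie directly upstream of the gene's starts.
Grin3a promoter, chr4:49845770-49845940, minus strand: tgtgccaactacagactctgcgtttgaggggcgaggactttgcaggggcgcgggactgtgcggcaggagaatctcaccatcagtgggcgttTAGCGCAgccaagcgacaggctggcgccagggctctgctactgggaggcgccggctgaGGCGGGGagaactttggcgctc
In these 171 bases, 2 runs with 14 bases in all were in a footprint of both libraries, against 33 of 153 bases at Grin1. None of the searched motifs was found in this stretch. As at Grin1, a further footprint found in both libraries (49845698 to 49845711 in library 1) lies in the part of the peak that is not printed, so these counts describe the printed stretches only.

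Base composition around the main start did not order the genes as their signal did. The ratio of observed to expected CpG dinucleotides within 500 bases of the start with the most coding transcripts was 0.943 for Grin1, 0.724 for Grin3a, 0.710 for Grin2c, 0.614 for Grin3b, 0.600 for Grin2a, 0.431 for Grin2b and 0.0870 for Grin2d. Where coding starts were equal in this, as in Grin2a, Grin2c, Grin2d and Grin3b, the most upstream of them was taken. The median ratio was 0.714 over open genes and 0.184 over the others. Grin1, the most open, was also the richest in CpG, and Grin2d was the poorest. For Grin2d this describes the start at 45878378, which had no peak. Grin2c and Grin3b had ratios like those of open genes and no peak. Of the 7331 protein-coding genes with a ratio at least that of Grin2c, 244 or 3.33% were not open, and of the 9854 with a ratio at least that of Grin3b, 465 or 4.72% were not.

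**Figure D3:**
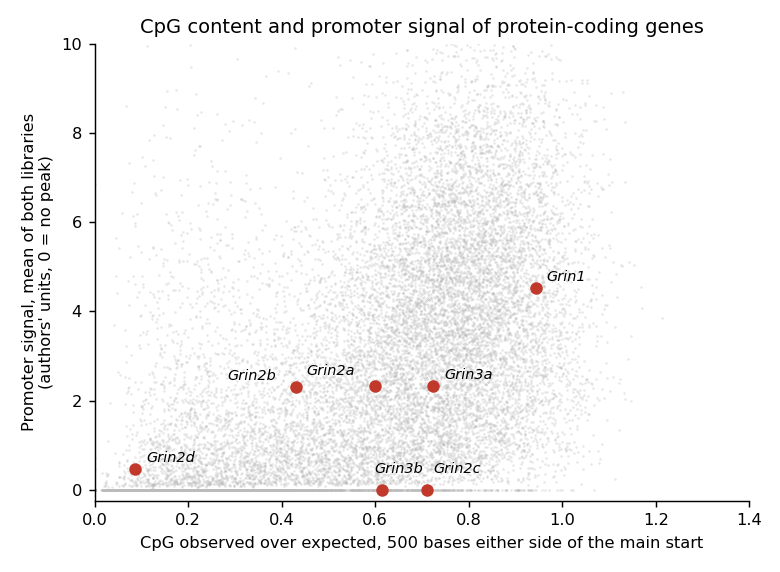
Promoter signal (mean of both libraries, authors' units, 0 where there was no peak) against the ratio of observed to expected CpG within 500 bases of the main start, for protein-coding genes (grey) and the 7 NMDA receptor subunit genes (red). Of 21938 genes, 114 lie outside the axes; Grin2c and Grin3b lie on the zero line at ratios of 0.710 and 0.614.

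The searched motifs otherwise set the open members apart little. In 300-base windows centred on the strongest promoter peak of library 1, searched on both strands, the GC box GGGCGG was present in 2 of the 5 members (Grin1 and Grin2a), against 68.6% of all such windows, and CCAAT in 1 (Grin2d), against 37.9%. None of the 5 held the cyclic AMP response element TGACGTCA (3.90% of all), TGANTCA of AP-1 (4.23%), CCGGAAG of ETS factors (18.5%), GCGTGGGCG of EGR (1.55%), AAGATGGCG of YY1 (3.73%), or the consensus of MEF2 (0.917%) or of the neuronal repressor REST (0.143%). The absence of these letters refers to these windows only.

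Over all 7 windows, peaks were denser than in the genome and were mostly in introns. The windows held 115 peaks in library 1 and 137 in library 2, or 8.77 and 10.4 per 100 kb, against 4.85 and 5.13 over the genome. Grin2a alone held 50 and 62 of these peaks. By gene, Grin3a lay below the genome in each library (3.43 and 4.90) and Grin2c was close to it (5.25 in both), while the other genes lay above it. Bases under a false discovery rate of 0.05 made up 2.51% and 3.26% of the windows, against 1.47% and 1.66% of the genome. By position, 77 peaks of library 1 and 99 of library 2 were intronic, 17 and 16 were promoter peaks, 11 and 11 lay at starts of other genes, and the rest lay in exons and flanks. Some listed peaks of a library overlap or adjoin. With these merged, the windows held 120.5 peaks as the mean of both libraries, in place of 126. Intron peaks were weaker (median 0.728 in library 1 and 0.586 in library 2) than promoter peaks (1.24 and 1.41). All 7 genes had a distal peak in their window in both libraries, where 69% of protein-coding genes did. For Grin2c and Grin3b these lie outside the gene, so 5 had one in the gene body. The 69% refers to windows with flanks, and no share over all genes was taken for gene bodies, so the count of 5 has no background here.

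Most peaks were found in both libraries, and their signals were close. Of the peaks of library 1, 84 or 73.0% overlapped a peak of library 2 by at least 1 base, against 77.8% of all peaks. Of those of library 2, 79 or 57.7% overlapped a peak of library 1, against 73.2% of all peaks. Promoter peaks were shared in 17 of 17 cases in library 1 and 14 of 16 in library 2. Library 2 had 31 peaks of a signal under 0.3 in the 7 windows, 25 of them in the Grin2a stretch described above, and with peaks under 0.3 left out of both lists the shared percentage, as the mean of both libraries, was 73.8% in place of 65.4%. Peaks that were each other's strongest overlap formed 76 pairs. The median log2 ratio of library 2 to library 1 was 0.13 (SD 0.34 over pairs), 45 pairs were higher in library 2, and 1 pair, in a Grin2b intron, differed by more than 2-fold (1.23 and 0.586).

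**Figure D4:**
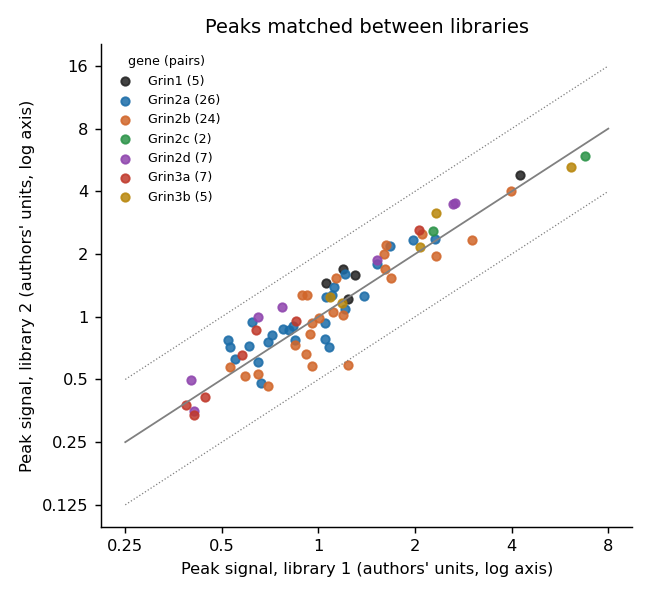
Signal of the 76 matched peaks in library 1 (horizontal) and library 2 (vertical), in the authors' units on log axes, coloured by gene with the number of pairs. The solid line marks equal signal and the dotted lines a 2-fold difference; 1 pair of Grin2b lies outside them.

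Footprints were present in 101 of 115 peaks of library 1 (87.8%) and in 101 of 137 of library 2 (73.7%). Over all peaks the shares were 76.1% and 78.9%, so the genes lay above the background in library 1 and below it in library 2. The share of library 2 includes the 25 weak peaks of the Grin2a stretch, of which 17 held no footprint. It therefore does not describe the 7 windows alike. Counted once each, 246 footprints of library 1 and 291 of library 2 overlapped a peak of the 7 windows. The counts by gene take a footprint again for each listed peak that it overlaps, which gave 254 and 296 over the 7 genes. Counted so, Grin2a peaks held 110 and 97 footprints and Grin2b peaks 76 and 81, which made these long genes the most footprinted in both libraries. Grin1 (15 and 32) and Grin3a (12 and 29) had over 2 times as many in library 2 as in library 1. The Grin2c window held 8 and 9 footprints, none of them in the gene body.

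Other genes of glutamate signalling were set beside the family from 3 lists. All 11 genes of the AMPA, kainate and delta receptor subunits were open, with a median promoter signal of 1.35 and 1.64 (1.50 ± 0.202). Gria2, which makes most AMPA receptors impermeable to calcium, was highest by mean with 3.03 and 4.22, and Grik1, a kainate receptor subunit, lowest by mean with 0.687 and 0.752, although Grik3 was lower in library 1 (0.674). None of the 11 reached the values of Grin1 in either library. All 17 genes of scaffold and signalling partners were open, with a median of 2.47 and 2.63 (2.55 ± 0.111), from Nos1, the neuronal nitric oxide synthase (0.796 and 0.931), to Dlg2, which encodes the scaffold PSD-93 (8.89 and 8.45). Of 6 genes of co-agonist supply, 4 were open, with a median over all 6 of 1.28 and 1.23. The highest by mean was Srr, the serine racemase that makes D-serine, with 3.97 and 4.91, although Slc1a4 was higher in library 1 (4.38 and 3.82). Dao, which degrades D-serine, and Slc7a10, a transporter of small neutral amino acids, had no promoter peak in either library.

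**Figure D5:**
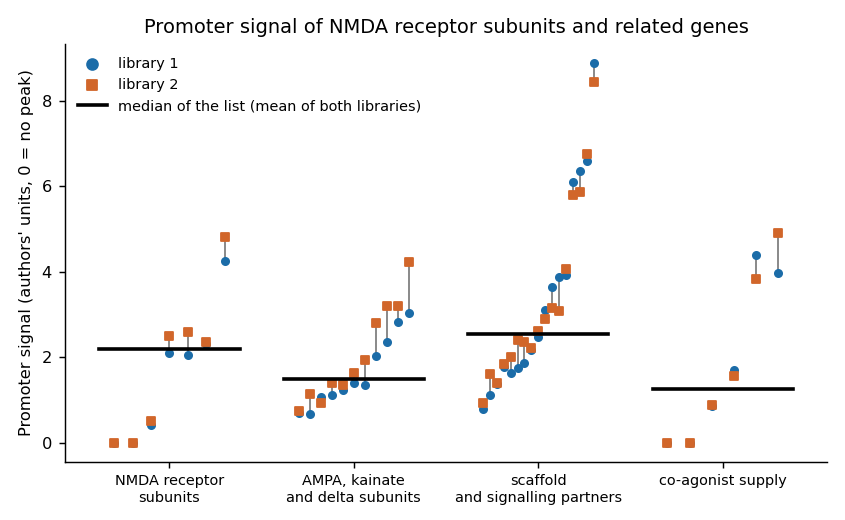
Promoter signal (authors' units, linear axis) of the NMDA receptor subunits and of 3 lists of related genes, ordered within each list by mean, in library 1 (circles) and library 2 (squares) joined by a grey line. Black lines are list medians; the NMDA receptor and co-agonist lists each hold 2 genes at 0 in both libraries, and every gene of the other lists had a promoter peak.

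By promoter signal, the AMPA, kainate or delta subunit nearest to Grin3a, Grin2b and Grin2a was in each case Gria4 (2.03 in library 1 and 2.79 in library 2), with a larger of the 2 absolute log2 ratios of 0.11, 0.17 and 0.25. The nearest to Grin1 was Gria2 (0.49) and to Grin2d Grik1 (0.75). These are likenesses over 2 libraries among 11 genes.

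The labelled tissue was checked by markers. Open were 6 of 6 genes of cortical excitatory neurons, 4 of 6 of inhibitory neurons, 5 of 6 of astrocytes, 4 of 6 of oligodendrocytes, 4 of 5 of their precursors, 1 of 6 of microglia and 2 of 5 of endothelial cells. So were 3 of 7 genes marking the cerebellum (4 in library 2), 1 of 3 marking the thalamus (2 in library 2) and 0 of 7 marking organs outside the brain (1 in library 2). Over all protein-coding genes the open share was 63.6%. With 3 to 7 genes per list, most of these counts lie too near that share to say much about the tissue. The median promoter signal of the excitatory neuron list was 1.61 in library 1 and 1.74 in library 2. Of the open cerebellar markers, Cbln1 (2.67 and 3.06) and Cbln3 (2.07 and 2.41) lay above it and Calb1 (1.37 and 1.58) below it.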

How the data were processed

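DNase-seq of 2 libraries of 1 group was analysed. Per the deposited description files, peaks, footprints and per-base cut statistics were made per library on mm10. What aligner and peak caller were used, and how CAST alleles were treated, was not given in the sources used here. Peak signal is the authors' value in the signal column, with no stated normalization. The deposited per-base tables give a false discovery rate (q-value) and list values under 0.05, and the deposited footprint lists carry the q-value 0.01 throughout. The longer of the 2 peak lists per library was used, on chromosomes 1 to 19, X and Y, with GENCODE M21. Sequences and curated starts came from RefSeq (GRCm38.p6, which is mm10). Printed stretches exclude annotated exons. No stretch of Grin2a was left by this rule, and none is printed for Grin2d. Genes, lists, motifs and windows were chosen with earlier results of these data known. Named were all 7 genes, their strongest promoter peak and strongest distal peak found in both libraries, the highest and lowest gene of each related list, list genes without a promoter peak, and the nearest glutamate receptor gene. Further peaks, the weak stretch in Grin2a and the sequences of Grin2c and Grin3b were added after their values were seen. Promoter signal, peak sharing and motif search were tested on simulated data and recovered 2000 of 2000, 1224 of 1224 and 200 of 200 planted values. Python 3.11.15, numpy 2.4.6 and matplotlib 3.10.9 were used. Alternatives were other windows, flanks, peak lists, overlaps, starts, thresholds and each library alone.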

Additional observations from a re-analysis of the deposited data

How the results depend on the processing

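Of 49 alternatives to the values over the whole family, 41 stayed within the spread or within 1.5 times the count. The number of open genes was 5 in every window, start set and single library tried, and 4 with the shorter peak list or with peaks above the median signal, where Grin2d was lost. Peaks over the 7 windows, 126 as the mean of both libraries (115 and 137 by library), were 77 with the shorter list and 75.5 with peaks above the median signal. The shared percentage of 65.4 was 46.0 where 50% of both peaks had to overlap. The median promoter signal of 2.21 was 1.91 with windows of 250 bases, 1.83 with coding starts and 1.91 with RefSeq starts, the last chosen after seeing the data. Bases under the false discovery rate limit, 37818.5 at 0.05, were 22143.5 at 0.001. Genes with a distal peak in both libraries were 7, and 4 where distal meant 2000 bases from any start. Without flanks Grin2c and Grin3b had 0 peaks. The promoter signal of Grin2d was 0.250 in the shorter list, as the mean of both libraries. No paired analysis was possible because there was 1 group and no contrast. The depth is unknown, so a start without a peak was not detectably open here and may not be closed in every cell.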

Other observations

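Dense groups of weak peaks were also counted over the genome. In bins of 40 kb, 20 or more peaks of a signal under 0.3 were found in 2 bins of library 1, with 50 such peaks, and in 7 bins of library 2, with 189. A group that crosses a border between bins is split, and the Grin2a stretch may itself be split. The counts can therefore miss such groups and do not show how rare they are. Peaks under 0.3 made up 10.7% of all peaks in library 1 and 11.4% in library 2, against 0 of 115 and 31 of 137 (22.6%) in the windows of the NMDA receptor genes. The cause was not tested.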
